A study of Homo sapiens with 8 samples.

Results

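The response of B-cell lymphoma cells to APRIL was described here for 2 lines together, as the difference between all 4 APRIL arrays and all 4 EDA arrays with the cell line as a covariate. These are all 8 arrays of the series. HBL-1, which is assigned to activated-B-cell lymphoma, and BJAB, mostly counted with germinal-centre lymphoma, are established human lines, and each was kept for 6 h with recombinant purified APRIL or with EDA at 1 µg/ml in medium with fetal calf serum. Each of the 4 groups had 2 arrays of total RNA, EDA was the stated control, and no array was of cells without a ligand, so a difference can come from either ligand. Whether replicate arrays stand for separate cultures is not stated, and p-values therefore describe the spread between arrays, which may be technical. A gene was counted as shared when its APRIL minus EDA difference had the same sign in both lines.

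APRIL (TNFSF13) is a trimeric TNF-family ligand of BCMA (TNFRSF17) and TACI (TNFRSF13B), and it also binds the heparan sulfate chains of proteoglycans such as syndecan-1 (SDC1). Its receptors recruit TRAF adaptors, which feed the NF-kB and MAP kinase pathways, and in normal B-lineage cells it is known for the survival of plasma cells and for class switching. EDA, ectodysplasin A, belongs to the same family, is known for the development of skin appendages, and signals through EDAR or EDA2R.

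No gene passed limma's test over both lines. Of 33616 genes, 0 (0%) had an adjusted p under 0.05, while 1543 genes (4.59%) had an unadjusted p under 0.05 with higher values under APRIL and 697 genes (2.07%) with lower values, together 6.66%. The smallest adjusted p was 0.053, for U7. The median 95% confidence interval of a gene reached 0.39 to either side on the log2 scale, and for 32261 genes (96.0%) it lay wholly between -1 and 1, a 2-fold difference in either direction.

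The direction was shared a little more often than not. With APRIL 11218 genes (33.4%) were above EDA in both lines, 6497 (19.3%) were below it in both, and 15901 (47.3%) had opposite signs. The difference over both lines was positive for 60.4% of all genes and for 71.7% of protein-coding genes. Among 17579 protein-coding genes, 7256 (41.3%) were above in both lines and 2050 (11.7%) below. Both APRIL arrays lay beyond both EDA arrays in each line for 1712 genes on the higher side (5.09%) and 721 on the lower side (2.14%), and 1845 further genes (5.49%) were so separated with opposite signs, so that 7.24% were separated in the same direction. Across genes, which are not independent replicates and share their arrays, the differences in the lines had a Pearson r of 0.066 and a Spearman rho of 0.066.

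**Figure D1:**
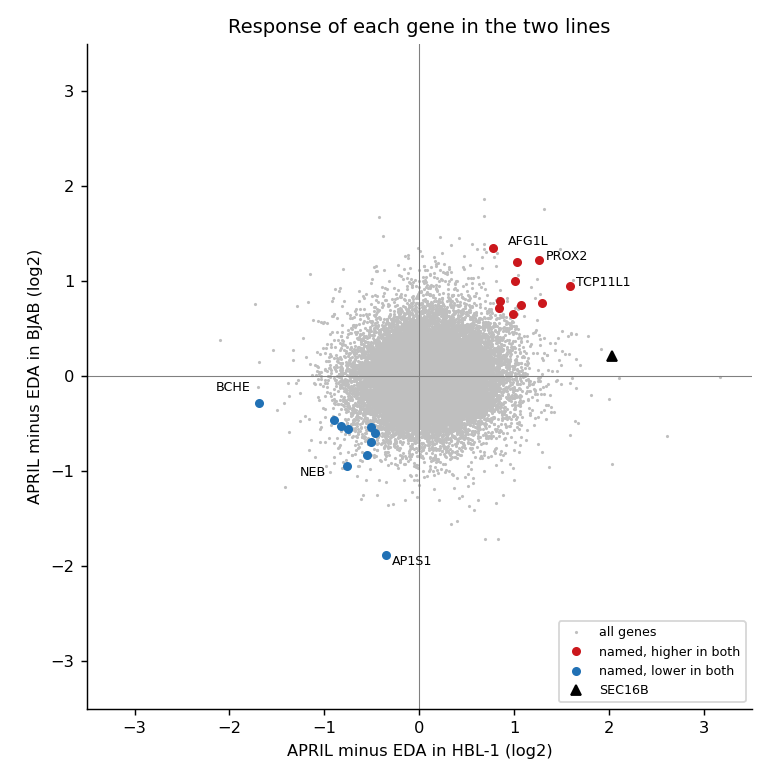
Each point is a gene, with the APRIL minus EDA difference in HBL-1 (log2) on the horizontal axis and in BJAB (log2) on the vertical axis. The cloud is nearly round (r = 0.066 over 33616 genes), and the named genes, chosen for a shared sign, lie in the upper right and lower left.

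The excess of higher values moved with 1 array and with the normalization. HBL-1 APRIL replicate 2 had a median background of 3.77, against 3.57 to 3.65 on the other arrays. Without it, 27.5% of genes were higher in both lines and 25.1% lower, and the counts at an unadjusted p under 0.05 were 1189 higher and 910 lower. With all arrays kept, another quantile normalization gave 25.9% higher in both lines and 25.6% lower, and cyclic loess gave 27.4% and 24.2%. The excess was also uneven over levels: with the genes in 10 bins of equal size by mean level, 26.9% were higher in both lines in the dimmest bin and 52.1% in the brightest. The median HBL-1 difference was 0.10 over all genes and 0.20 over protein-coding genes, with medians of 0.00 in BJAB, and each gene below is read against these. The part of this array in each result was not tested beyond the values given without it.

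**Figure D2:**
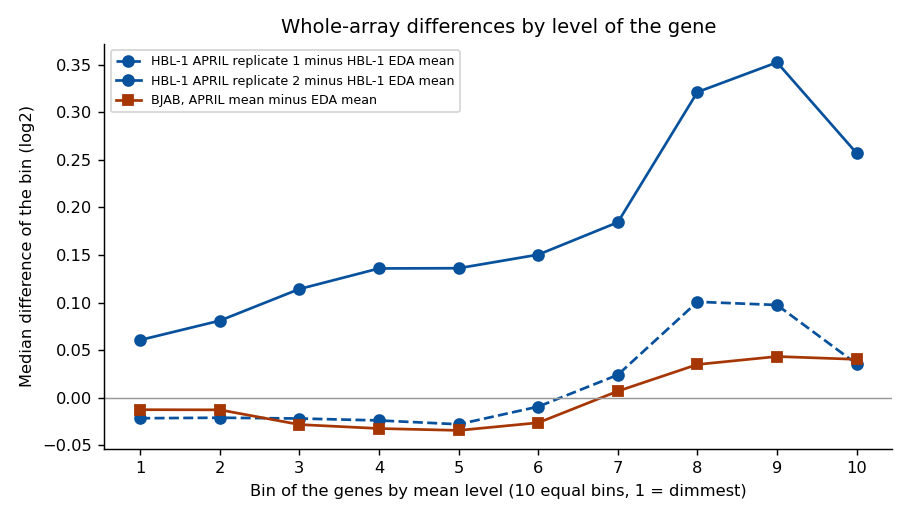
Median difference from the EDA mean (log2) for each of 10 equal bins of the genes by mean level, for the HBL-1 APRIL arrays separately and for BJAB. HBL-1 APRIL replicate 2 runs from 0.06 in the dimmest bin to 0.35 in bin 9, while replicate 1 runs from -0.02 to 0.10 in the same bins.

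Within the lines, HBL-1 had 1 gene (0.00297%) and BJAB 0 genes (0%) past limma's adjusted threshold, and 2967 genes (8.83%) and 1365 genes (4.06%) were at an unadjusted p under 0.05. The difference of the responses gave 0 genes (0%) past the threshold and 1894 (5.63%) at an unadjusted p under 0.05. The HBL-1 gene was SEC16B, which organises endoplasmic reticulum exit sites. It read 5.25 and 5.18 with EDA and 7.13 and 7.35 with APRIL in HBL-1, and 4.43 and 4.38 against 4.66 and 4.57 in BJAB. The arrays of the ligands did not overlap in either line. Its difference was 2.02 in HBL-1 (adjusted p = 0.049) and 0.21 in BJAB, and its adjusted p for the difference of the responses was 0.84. Leaving out any 1 of the 8 arrays ended this call.

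Among protein-coding genes whose APRIL arrays lay beyond the EDA arrays on the same side in each line, the 10 with the smallest p in each direction were followed. None of them passed, and their separation is a condition of the choice, not a result. AFG1L, a mitochondrial ATPase, read 6.27 and 6.28 with EDA and 7.27 and 7.34 with APRIL in HBL-1. In BJAB it read 7.25 and 7.45 with EDA and 8.32 and 8.78 with APRIL. All 4 APRIL arrays lay above the EDA arrays of their line. The difference over both lines was 1.11 (95% interval 0.78 to 1.45, n = 4 arrays per ligand, adjusted p = 0.186).

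PROX2, a homeobox transcription factor, read 5.15 and 4.43 with EDA against 5.92 and 6.18 with APRIL in HBL-1, and 6.68 and 6.00 against 7.86 and 7.27 in BJAB. Its difference was 1.24 over both lines, with 1.26 in HBL-1 and 1.23 in BJAB. TCP11L1 read 4.46 and 5.49 against 6.50 and 6.61 in HBL-1, and 5.62 and 5.83 against 6.87 and 6.49 in BJAB. The arrays of the ligands did not overlap in either line for PROX2 or TCP11L1. GORAB, a Golgi protein, read 7.16 and 7.11 against 8.04 and 8.25 in HBL-1, and 6.04 and 6.20 against 7.53 and 6.73 in BJAB. Its differences in the lines were 1.01 and 1.00.

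OTUD7B, a deubiquitinase that acts on TRAF3 in the noncanonical NF-kB pathway, differed by 1.06 (0.61 to 1.52). It read 4.34 and 4.24 with EDA against 4.78 and 5.36 with APRIL in HBL-1, and 5.06 and 4.50 against 6.31 and 5.95 in BJAB. The APRIL arrays were above the EDA arrays in both lines, at levels near the dim end in HBL-1. The other genes on the higher side were CPLANE1, a ciliary protein (1.03), ADAMTS19, a secreted metalloprotease (0.91), SKAP1, an adaptor of antigen receptor signalling in T cells (0.82), FBXL6, an F-box protein of ubiquitin ligases (0.82), and SYCP2L, a relative of a synaptonemal complex protein (0.78). Their adjusted p-values and that of OTUD7B were between 0.53 and 0.54.

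NEB, which encodes the muscle filament protein nebulin, had the smallest p among those on the lower side. It read 6.54 and 6.36 with EDA and 5.77 and 5.61 with APRIL in HBL-1, and 6.58 and 6.45 against 5.55 and 5.58 in BJAB. Both lines had the same order with no overlap, and the difference was -0.85 (-1.16 to -0.55, adjusted p = 0.53). BCHE, a cholinesterase, differed by -1.69 in HBL-1, where it read 5.88 and 6.52 with EDA and 4.65 and 4.37 with APRIL. In BJAB it differed by -0.28, with 10.41 and 10.37 against 10.16 and 10.07. AP1S1, a subunit of the clathrin adaptor of the Golgi, differed by -0.35 in HBL-1 and -1.88 in BJAB. Its other transcript cluster differed by 0.41, so the clusters of AP1S1 disagreed in sign.

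DEFB106A, a beta-defensin with a near-identical copy that can share its signal, differed by -0.67. MISFA (-0.68), ELAPOR2 (-0.69), RAB6B, a Golgi Rab GTPase (-0.65), SULT2A1, a sulfotransferase (-0.60), CRISP1 (-0.53) and SCYL3 (-0.52) completed the lower side, each with an adjusted p of 0.69.

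**Figure D3:**
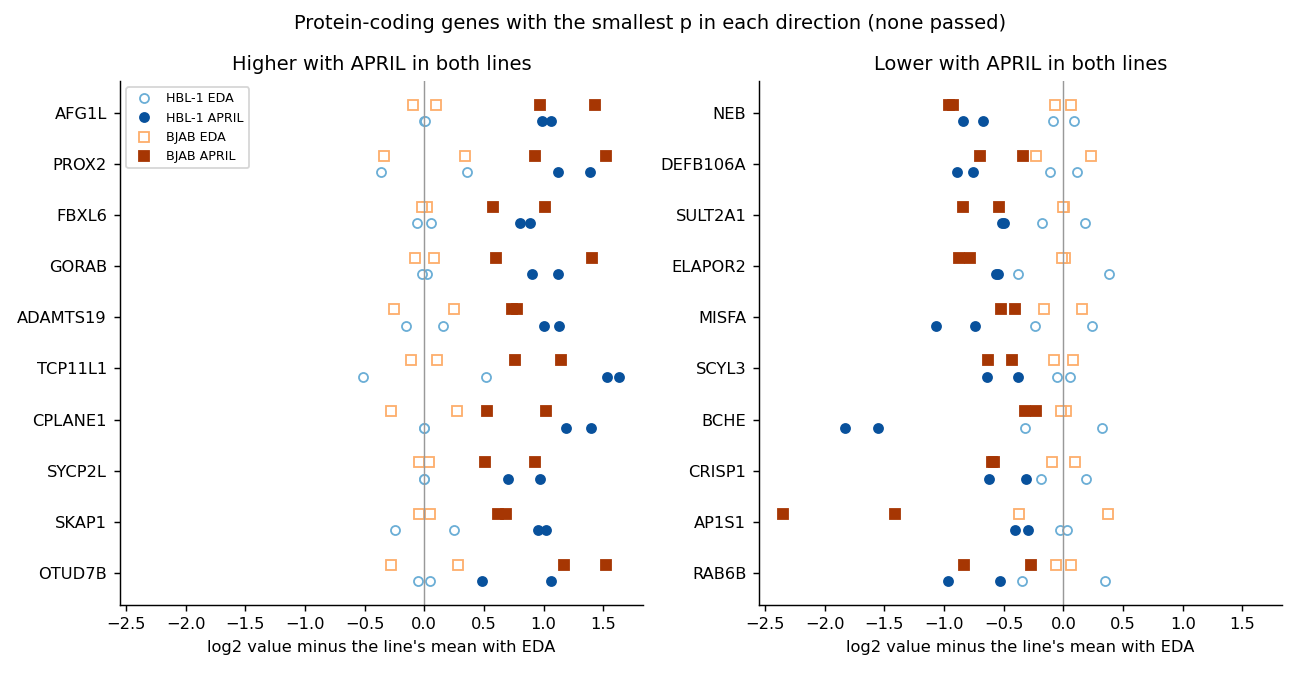
log2 value on each of the 8 arrays minus the mean of the EDA arrays of its line, for the protein-coding genes with the smallest p in each direction among those with separated arrays, open symbols for EDA and filled for APRIL. By the choice of genes the APRIL arrays of a line lie to one side of its EDA arrays, at a mean of 1.03 in HBL-1 and 1.20 in BJAB for AFG1L.

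Promoters are shown for 4 of these genes and for NR4A1, an immediate early gene described below, because APRIL receptors feed the NF-kB pathway. Each is the 250 bases before the start in RefSeq, build GRCh38.p14, 5′ to 3′ on the gene's strand: AFG1L at chr6:108294804-108295053, plus strand, PROX2 at chr14:74876146-74876395, minus strand, AP1S1 at chr7:101154226-101154475, plus strand, NEB at chr2:151734477-151734726, minus strand, and NR4A1 at chr12:52022582-52022831, plus strand. The kB consensus was searched on both strands, as was TGACG, a core of the cyclic AMP response element. Capitals mark TGACG. The NR4A1 promoter and this motif were added after values were seen.
AFG1L: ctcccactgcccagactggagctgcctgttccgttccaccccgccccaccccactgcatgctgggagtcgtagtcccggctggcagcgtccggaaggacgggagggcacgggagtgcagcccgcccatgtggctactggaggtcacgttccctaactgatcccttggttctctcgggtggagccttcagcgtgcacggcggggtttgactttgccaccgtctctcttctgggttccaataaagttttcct
PROX2: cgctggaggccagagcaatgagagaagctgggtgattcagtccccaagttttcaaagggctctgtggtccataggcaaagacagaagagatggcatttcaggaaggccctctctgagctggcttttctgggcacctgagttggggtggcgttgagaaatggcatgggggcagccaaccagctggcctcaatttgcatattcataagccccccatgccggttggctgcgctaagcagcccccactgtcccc
NR4A1: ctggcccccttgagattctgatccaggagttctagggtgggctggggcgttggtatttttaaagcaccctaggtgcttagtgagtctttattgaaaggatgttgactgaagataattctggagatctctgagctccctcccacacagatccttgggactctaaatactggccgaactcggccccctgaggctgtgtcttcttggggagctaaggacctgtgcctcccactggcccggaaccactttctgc
NEB: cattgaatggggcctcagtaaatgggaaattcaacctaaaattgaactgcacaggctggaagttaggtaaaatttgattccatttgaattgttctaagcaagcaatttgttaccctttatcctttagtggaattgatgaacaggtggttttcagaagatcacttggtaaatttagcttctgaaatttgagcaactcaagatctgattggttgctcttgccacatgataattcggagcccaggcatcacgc
AP1S1: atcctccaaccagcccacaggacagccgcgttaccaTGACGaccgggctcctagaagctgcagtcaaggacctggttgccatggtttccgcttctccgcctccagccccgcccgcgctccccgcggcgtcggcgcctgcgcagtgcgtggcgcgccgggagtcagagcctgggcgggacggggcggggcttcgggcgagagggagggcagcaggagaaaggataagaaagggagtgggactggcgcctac
The kB letters were in none of these windows, in 0 of the 8 higher and 0 of the 9 lower genes with a promoter in the table, and in 9.96% of 35116 promoters. TGACG was in AP1S1 alone of the windows printed, and in 21.2% of all promoters. As 1 window is printed per gene, a motif at another start of a gene, NR4A1 included, would not be seen in it. A promoter of a gene at an unadjusted p under 0.05 held the kB letters in 12.8% of 1238 on the higher side and in 7.79% of 154 on the lower side, against 11.3% of promoters of the protein-coding genes tested. These are letter matches in a window and describe no binding.

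The receptors were measured first among the genes of APRIL and EDA biology. TNFRSF17 (BCMA) read 11.72 and 10.93 with EDA and 11.32 and 11.94 with APRIL in HBL-1, and 6.57 and 6.05 against 6.52 and 6.31 in BJAB. The ligands overlapped in both lines, and the difference was 0.20 (-0.28 to 0.69). TNFRSF13B (TACI) read 10.48 and 9.82 against 9.99 and 10.08 in HBL-1, and 5.37 and 4.67 against 6.33 and 4.79 in BJAB, a difference of 0.21 (-0.50 to 0.92). SDC1 lay at 3.28 to 4.02 on all arrays, at the level of the array background, and its difference was -0.03.

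EDA2R, an EDA receptor, was the only one of these 10 genes with arrays separated in the same direction in both lines, with 5.78 and 4.99 against 5.80 and 6.42 in HBL-1 and 4.15 and 4.20 against 4.54 and 4.36 in BJAB. Its difference was 0.50 (0.03 to 0.96, adjusted p = 0.75). EDAR differed by 0.28, at 4.13 to 4.74. TNFSF13 itself differed by 0.16 and TNFSF13B (BAFF), the closest relative of APRIL, by 0.30 in HBL-1 and -0.66 in BJAB, where its arrays were apart in opposite directions. IL10 (0.09), an inhibitory cytokine, CD274 (0.10), a checkpoint ligand, and CIITA (0.27), which switches on class II genes of the MHC, had intervals that spanned 0.

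**Figure D4:**
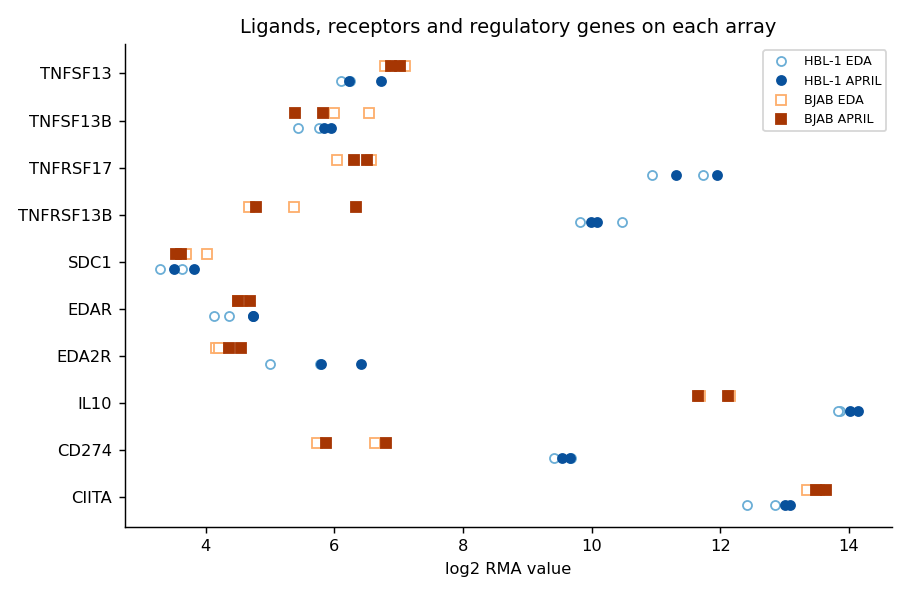
log2 RMA value on each array for the ligands, receptors and regulatory genes fixed by name, open for EDA and filled for APRIL. The lines lie far apart for TNFRSF17, which reads 10.93 to 11.94 in HBL-1 and 6.05 to 6.57 in BJAB.

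Of 27 lists of genes of B-cell biology, no list had a member that passed over both lines, and the members named are the 2 with the smallest p among those with the same sign in each line. All listed genes are protein-coding, so their counts stand against the 41.3% of protein-coding genes above EDA in both lines and the 11.7% below. Without HBL-1 APRIL replicate 2 these were 5207 and 4079 of the 17579 protein-coding genes, and each list's counts without that array follow its counts with it. In NF-kB subunits and inhibitors, 12 of 13 measured members had a positive difference over both lines, but 4 were higher in both lines and 9 had opposite signs, and without that array 4 were higher and 0 lower. The list's median was 0.35 in HBL-1 (0.33 without APRIL replicate 2) and -0.03 in BJAB. MAP3K14, the kinase that drives the noncanonical pathway, read 9.34 and 9.43 with EDA against 10.25 and 10.80 with APRIL in HBL-1. In BJAB it read 10.55 and 11.03 against 10.96 and 10.90, where the ligands overlapped. NFKBIB, an inhibitor of NF-kB, differed by 0.41 in HBL-1 and 0.33 in BJAB, with no overlap in either.

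NF-kB target genes had 11 of 27 members higher in both lines and 1 lower in both, and 10 and 5 without HBL-1 APRIL replicate 2. Their median was 0.27 in HBL-1, which was 0.06 without APRIL replicate 2, and -0.01 in BJAB. ICAM1, an adhesion molecule, read 8.46 and 8.21 against 9.23 and 9.46 in HBL-1, and 8.98 and 8.88 against 9.25 and 8.96 in BJAB. The arrays were apart in HBL-1 only, where the difference was 1.01, against 0.17 in BJAB (adjusted p = 0.84 for the difference of the responses). CCL22, a chemokine that attracts regulatory T cells, differed by 0.73 at levels of 4.13 to 5.79. Among 18 TNF-family ligands, receptors and adaptors, 8 were higher in both lines and 1 lower (5 and 2 without that array), and the median was 0.30 in HBL-1 (0.03 without that array) and 0.09 in BJAB. CD40, a costimulatory receptor of B cells, read 11.58 and 11.90 against 12.27 and 12.22 in HBL-1, and 13.78 and 13.62 against 14.13 and 13.78 in BJAB.

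Immediate early genes are switched on within minutes of receptor signalling. The list of these and of MAP kinase feedback genes had 9 of 24 members higher in both lines, 2 lower and 13 opposite. Without HBL-1 APRIL replicate 2, 6 were higher and 4 lower. Members had a median of 0.37 in HBL-1 and 0.02 without APRIL replicate 2, and -0.01 in BJAB. NR4A1, an orphan nuclear receptor, read 6.34 and 6.28 against 6.51 and 7.56 in HBL-1, and 7.22 and 7.10 against 8.10 and 7.58 in BJAB. IER5 read 8.09 and 7.71 against 8.57 and 8.45 in HBL-1, and 7.29 and 7.53 against 7.69 and 8.09 in BJAB. Neither gene overlapped in either line, and the differences were 0.70 (0.22 to 1.19) for NR4A1 and 0.54 (0.19 to 0.90) for IER5, each with an adjusted p of 0.69.

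Of the 27 lists, MHC class I presentation had the largest share of members above EDA in both lines. Of its 18 measured genes, 16 were higher in both lines and none lower, and 14 were higher and 1 lower without HBL-1 APRIL replicate 2. Their median level was 12.03, and in the brightest bin of all genes 52.1% were higher in both lines. The differences were small, with medians of 0.27 in HBL-1 (0.15 without that array) and 0.04 in BJAB. Several shared signs rest on BJAB differences near 0: 0.00 for ERAP1, 0.01 for HLA-B, CALR and CANX, and 0.02 for HLA-C and HLA-F. Others were larger in BJAB, such as TAP1 at 0.38. TAP2, which carries peptides into the endoplasmic reticulum, read 9.06 and 9.27 against 9.39 and 9.74 in HBL-1, and 9.45 and 9.82 against 9.93 and 9.91 in BJAB. NLRC5, the activator of class I genes, differed by 0.65 in HBL-1 and 0.04 in BJAB.

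Of 17 MHC class II genes, 11 were higher in both lines and none lower, with medians of 0.20 in HBL-1 and 0.04 in BJAB. Without HBL-1 APRIL replicate 2, 9 were higher and 2 lower, and the HBL-1 median was 0.13. HLA-DQB1, a class II chain, read 5.98 and 6.06 with EDA against 6.74 and 7.50 with APRIL in HBL-1, and 9.92 and 9.74 against 10.26 and 10.25 in BJAB. The ligands were apart in both lines, and the difference was 0.76 (0.31 to 1.21, adjusted p = 0.69). Class II genes have close relatives and many alleles, which can affect probe signals. LGMN, a lysosomal protease, differed by 0.78 in HBL-1 and 0.15 in BJAB.

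Costimulatory and checkpoint genes had 10 of 26 members higher in both lines and 1 lower (6 and 5 without HBL-1 APRIL replicate 2), with medians of 0.36 in HBL-1 (0.07 without that array) and 0.00 in BJAB. SLAMF7, a receptor of plasma cells and natural killer cells, read 11.49 and 11.46 against 12.07 and 12.64 in HBL-1, and 8.23 and 7.36 against 8.60 and 8.30 in BJAB. Its arrays were apart in both lines (difference 0.77, 0.30 to 1.24). Among 21 immunoregulatory genes 8 were higher in both lines and 4 lower, and without that array 5 and 6. CD38, an ectoenzyme of plasma cells, differed by 0.66 in HBL-1 and 0.27 in BJAB, and SOCS1, an inhibitor of cytokine signalling, by -0.31 and -0.35 at background levels.

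**Figure D5:**
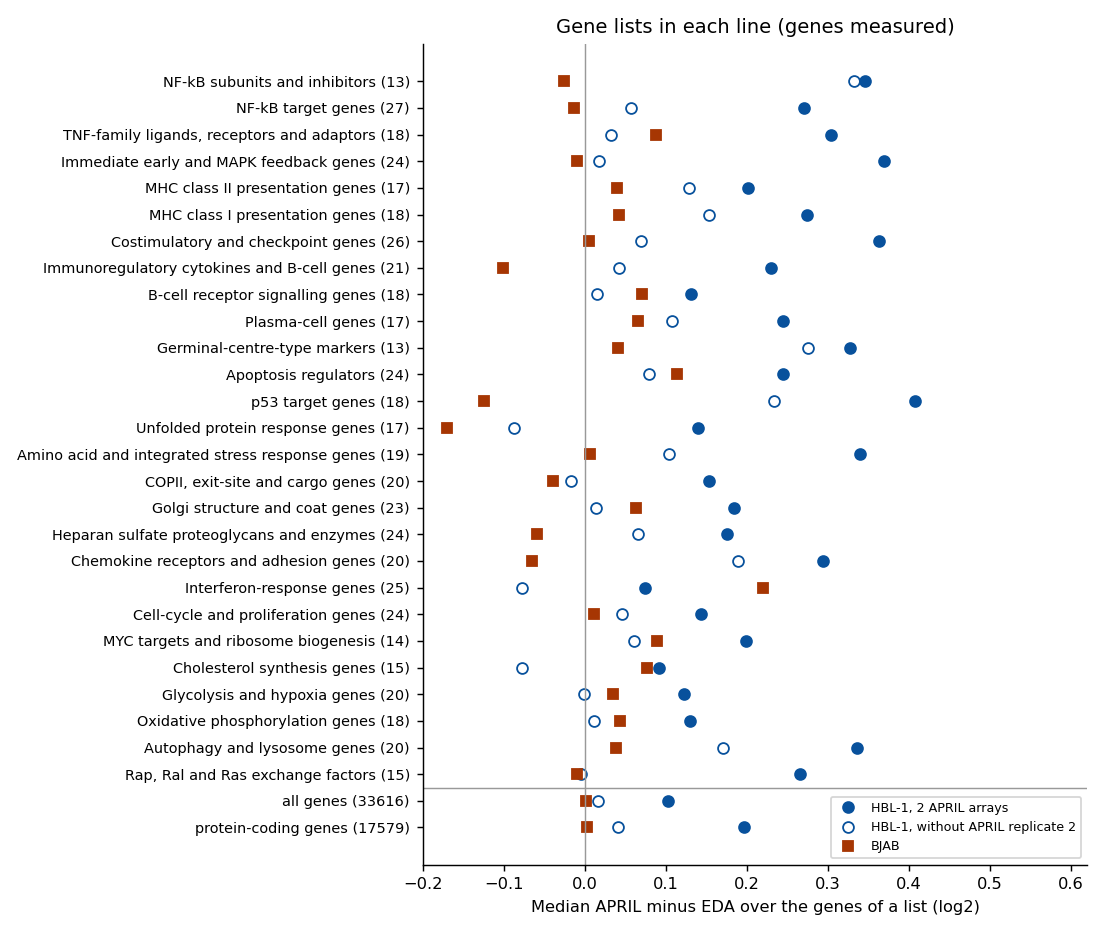
Median APRIL minus EDA difference (log2) over the members of each list in HBL-1, in HBL-1 without APRIL replicate 2, and in BJAB, with the number of genes measured. MHC class I presentation genes have medians of 0.27, 0.15 and 0.04, and all genes have 0.10, 0.02 and 0.00.

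In the lists of B-cell identity, 10 of 18 B-cell receptor signalling genes, 9 of 17 plasma-cell genes and 7 of 13 germinal-centre-type markers were higher in both lines, and 1, 0 and 0 were lower in both. Without HBL-1 APRIL replicate 2 the higher counts were 6, 5 and 5 and the lower counts 2, 2 and 1. FCGR2B, the inhibitory Fc receptor of B cells, differed by 0.24 in HBL-1 and 1.01 in BJAB. PIK3CD, a lipid kinase of the antigen receptor pathway, differed by 0.62 and 0.16. LMO2, a transcription regulator of germinal-centre cells, differed by 0.56 and 0.19 with separated arrays in both lines, and BACH2, a repressor of plasma-cell differentiation, by 0.38 and 0.18. Of the 5 clusters of BACH2 3 had a positive difference over both lines, and they ran from -0.44 to 0.51.

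Of 24 apoptosis regulators, 15 were higher in both lines and 2 lower (12 and 2 without HBL-1 APRIL replicate 2), with medians of 0.24 in HBL-1 (0.08 without that array) and 0.11 in BJAB. BCL2, an inhibitor of apoptosis, read 8.37 and 8.38 with EDA against 8.46 and 8.83 with APRIL in HBL-1, and 4.83 and 4.68 against 5.17 and 5.68 in BJAB. FAS, a death receptor, differed by 0.83 in HBL-1 and 0.20 in BJAB. BCL2 was separated in both lines and FAS was not. The p53 target genes had 7 of 18 members higher in both lines and 1 lower (6 and 2 without that array), and SPATA18, which acts in mitochondrial quality control, differed by 0.37.

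Amino acid and integrated stress response genes had 10 of 19 members higher in both lines and 2 lower, and 10 and 6 without HBL-1 APRIL replicate 2. DDIT3, a stress transcription factor, read 6.81 and 6.39 against 7.03 and 6.85 in HBL-1, and 6.08 and 6.40 against 6.94 and 6.82 in BJAB. PPP1R15A, which restores translation after stress, read 10.12 and 10.15 against 10.35 and 11.18 in HBL-1, and 8.64 and 8.72 against 9.37 and 8.92 in BJAB. Both were apart in both lines, with differences of 0.49 and 0.54. Unfolded protein response genes had 6 of 17 members higher in both lines and 3 lower (2 and 7 without that array), and their median was 0.14 in HBL-1, -0.09 without APRIL replicate 2 and -0.17 in BJAB. SEL1L, of the degradation pathway of the endoplasmic reticulum, differed by 0.42 and 0.32, and SDF2L1, a chaperone partner, by 0.56 and 0.02.

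The series title concerns delivery of APRIL by a coreceptor to BCMA in the Golgi, so genes of these structures were followed. Of 20 genes of COPII carriers, 8 were higher in both lines, of 23 Golgi genes 13, and of 24 genes of heparan sulfate proteoglycans 6, with 1, 3 and 5 lower in both. Without HBL-1 APRIL replicate 2 the counts were 3 higher and 5 lower for COPII genes, 11 and 5 for Golgi genes, and 7 and 8 for heparan sulfate genes. XYLT2, which starts glycosaminoglycan chains, read 5.90 and 6.09 against 6.38 and 6.77 in HBL-1, and 6.79 and 6.79 against 7.35 and 7.14 in BJAB. The APRIL arrays were above the EDA arrays in both lines (difference 0.52, 0.19 to 0.85). GLCE, an epimerase of heparan sulfate, differed by 0.90 in HBL-1 and 0.16 in BJAB. PREB, a COPII regulator, differed by 0.20, and the Golgi proteins TGOLN2 and GOLGA3 by 0.25 and 0.34.

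Chemokine receptors and adhesion genes had 6 of 20 members higher in both lines and 1 lower, and 7 and 2 without HBL-1 APRIL replicate 2. CCR7, which guides lymphocytes to lymph nodes, read 15.53 and 15.68 against 15.73 and 16.00 in HBL-1, and 9.78 and 9.79 against 10.43 and 10.32 in BJAB. Its arrays were apart in both lines, with a difference of 0.43 (0.11 to 0.75). Interferon-response genes had a higher median in BJAB than in HBL-1: 0.22 against 0.07, the latter -0.08 without APRIL replicate 2. Of 25 members, 13 were higher in both lines and 1 lower, and without that array 7 and 3. IFI44L read 14.95 and 14.93 against 14.97 and 15.34 in HBL-1, and 5.53 and 6.52 against 7.50 and 7.50 in BJAB. The differences were 0.21 and 1.47, and the adjusted p for the difference of the responses was 0.84. RSAD2, an antiviral enzyme, differed by 0.01 in HBL-1 and 0.89 in BJAB.

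MYC targets and ribosome biogenesis genes had 10 of 14 members higher in both lines, at a median level of 13.9, and cell-cycle genes 13 of 24, at 13.2. Without HBL-1 APRIL replicate 2 these were 5 of 14 and 10 of 24, and the HBL-1 median of the MYC list went from 0.20 to 0.06. RRP12, a ribosome assembly factor, differed by 0.48, TERT, the telomerase subunit, by 0.50, AURKB by 0.39 and CDC20, both mitotic regulators, by 0.36. The other cluster of TERT differed by -0.19, so its clusters disagreed in sign, and 3 of 4 clusters of RRP12 were positive. Oxidative phosphorylation genes had 12 of 18 members higher in both lines with medians of 0.13 in HBL-1 and 0.04 in BJAB, and 8 of 18 with an HBL-1 median of 0.01 without that array. COX4I1 differed by 0.20 and ATP5PB by 0.22, both of the respiratory chain and its ATP synthase. Among 15 cholesterol genes 7 and among 20 glycolysis genes 10 were higher in both lines, with SQLE at 0.26, FDPS at 0.24, HK1 at 0.51 and EGLN3 at 0.39 (2 of its 3 clusters were positive). Without that array 3 cholesterol genes were higher and 3 lower, and 5 glycolysis genes were higher and 4 lower.

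Autophagy and lysosome genes had 11 of 20 members higher in both lines and 5 of 15 exchange factors of Ras-type GTPases had, with 0 and 1 lower. Without HBL-1 APRIL replicate 2, 10 autophagy genes were higher and 4 lower, and 4 exchange factors were higher and 6 lower. ATG16L1, a scaffold of autophagosome formation, differed by 1.69 in HBL-1 and 0.12 in BJAB on 1 of 19 clusters, whose differences over both lines ran from -0.19 to 0.90. CTSD, a lysosomal protease, differed by 0.36 and 0.68. RAPGEF5 differed by 1.53 in HBL-1 and 0.24 in BJAB with separated arrays in both, and RGL1 by 1.39 and 0.06. Their adjusted p for the difference of the responses was 0.84.

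The labelled cell type was checked against 5 marker lists. The 8 B-cell markers had mean levels of 13.1 to 14.2 per array, with CD79B, part of the antigen receptor, the brightest. T-cell and natural killer markers had means of 4.6 to 5.9, but CD3G, a T-cell receptor chain, read 11.16 to 11.66 in BJAB, and the 9 myeloid markers had means of 5.1 to 5.3. Epithelial and fibroblast markers had means of 6.5 to 6.9, with COL1A1, a collagen, the brightest at 9.62, and the 3 erythroid markers had means of 5.6 to 6.4. Ranges under EDA and APRIL overlapped for each list. Each range pools both lines, so this overlap does not compare the ligands within a line. Of the listed markers, S100A9 alone had arrays separated in the same direction in both lines, lower with APRIL. CD3G differed by 0.41. GNLY, S100A9 and EPCAM, markers of natural killer, myeloid and epithelial cells, differed by -0.20, -0.22 and -0.22, ITGAM by -0.43, KRT19 by 0.40, HLA-DRA by 0.24, ALAS2 by 0.26 and HBA1 by 0.15. GNLY read 3.21 to 3.59, at the level of the array background. Of 10 T-cell and natural killer markers 5 were higher in both lines and 1 lower. The counts were 2 and 4 of 9 myeloid markers, and 4 and 2 of 9 epithelial and fibroblast markers. Without HBL-1 APRIL replicate 2 these were 3 and 3, 0 and 5, and 2 and 4.

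Small RNA genes and receptor segments were left out of the naming rule, and those given here were picked after values were seen. The symbol U7 is that of the small nuclear RNA that guides histone transcript processing, but it was not matched to the RefSeq gene table. Whether the brightest of its clusters is the functional gene was not tested. This cluster read 6.35 and 6.16 with EDA against 7.52 and 7.61 with APRIL in HBL-1, and 4.91 and 4.80 against 6.40 and 6.83 in BJAB. The difference was 1.53 (1.17 to 1.89, adjusted p = 0.053), and of the 12 clusters named U7 5 had a positive difference, from -0.70 to 1.53. A T-cell receptor joining segment, TRAJ30, read 5.97 and 5.76 against 7.53 and 7.44 in HBL-1 and 5.55 and 5.46 against 6.63 and 6.41 in BJAB, a difference of 1.32. Of 1470 miRNA genes, 20.1% were higher in both lines and 32.2% lower, against 33.4% and 19.3% of all genes. Their median level was 4.79, and in the bin of all genes with a mean level of 4.88, 26.1% were higher and 22.6% lower. Without HBL-1 APRIL replicate 2 the counts were 304 higher and 447 lower, against 27.5% and 25.1% of all genes.

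For 5 miRNA genes with separated arrays in both lines, picked after values were seen, all mature miRNAs in the RefSeq table (GRCh38.p14) are shown, with capitals at the seed (bases 2 to 8), since the array names the gene and not the mature RNA.
hsa-miR-553: aAAACGGUgagauuuuguuuu
hsa-miR-92b-5p: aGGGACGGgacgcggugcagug
hsa-miR-92b-3p: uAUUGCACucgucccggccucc
hsa-miR-19b-2-5p: aGUUUUGCagguuugcauuuca
hsa-miR-19b-3p: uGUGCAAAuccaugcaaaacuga
hsa-miR-381-5p: aGCGAGGUugcccuuuguauau
hsa-miR-381-3p: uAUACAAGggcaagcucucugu
hsa-miR-503-5p: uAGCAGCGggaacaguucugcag
hsa-miR-503-3p: gGGGUAUUguuuccgcugccagg
No seed was shared among them. MIR553 read 5.99 and 6.47 against 4.12 and 5.52 in HBL-1, and 5.94 and 6.54 against 5.18 and 4.98 in BJAB, a difference of -1.29. MIR92B differed by 1.02 and MIR19B2 by 0.87, while MIR381 differed by -0.82 and MIR503 by -0.64. Their adjusted p-values were 0.53 for MIR92B and 0.65 for the others.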

How the data were processed

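The series holds 8 single-colour Affymetrix arrays of total RNA from 2 lymphoma lines. The authors' deposited values are log2 signals; the submitters' processing notes name RMA and Affymetrix Expression Console, without versions. Rows with exactly 1 symbol were used (36176 of 138745), with the brightest row per gene, which gave 33616 genes, 33036 of them matched to the RefSeq gene table of GRCh38.p14. Differences are APRIL minus EDA on this log2 scale. Each gene was fitted in limma 3.58.1 (R 4.3.3; lmFit and eBayes) with line and ligand as terms. A fit with 1 mean per group gave the values within a line and the difference of the responses. P-values are two-sided and adjusted by Benjamini-Hochberg over all genes, with a threshold of 0.05. The procedure was tested on simulated data. Their noise was independent between genes and arrays, so this test does not cover a shift of a whole array.

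The members, lists and tests were chosen with earlier results of these data known. Because none passed, the genes named were the 10 protein-coding genes with the smallest p in each direction among those with separated arrays in each line, 10 genes of APRIL and EDA biology, and per list the 2 members with the smallest p among those with the same sign in each line. The number of arrays limits the precision.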

Additional observations from a re-analysis of the deposited data

Results flagged for a closer look

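TNFSF13B, the gene of BAFF, differed by 0.30 in HBL-1 and by -0.66 in BJAB, and every APRIL array lay above both EDA arrays in HBL-1 and below both in BJAB. The adjusted p of limma for the difference of the responses was 0.86. Of all genes, 1845 (5.49%) had arrays apart with opposite signs in the lines. The clusters of TNFSF13B differed by -0.18 for the one used and -0.39 for the other over both lines. For chemokine receptors and adhesion genes, the median of the per-array list values differed by 0.36 in HBL-1 and by -0.10 in BJAB, with every array on that side, and this difference between the lines was not tested. The median of the members' differences in HBL-1 was 0.29, and 0.19 without APRIL replicate 2. Over protein-coding genes these medians were 0.20 and 0.04.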

How the results depend on the processing

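Over both lines limma called 1 gene, U7, when genes under a mean level of 5 were left out (adjusted p = 0.048), with an intensity trend and robust shrinkage (0.040) and with array weights (0.046), and 0 genes under the other alternatives. The cause was not tested, except that the first tests fewer genes. SEC16B in HBL-1 was lost, leaving 0 genes, under the replicate block and with the 4 arrays of that line alone. Leaving out 1 array gave 0 to 0 genes over both lines and 0 to 0 in HBL-1. The replicate block gave 1519 higher and 656 lower genes at an unadjusted p under 0.05 and called 0 over both lines. Deviations of same-numbered arrays had correlations of -0.018 in HBL-1 and 0.059 in BJAB. With 2 arrays per group these values cannot decide whether same-numbered arrays share a culture or a day, which the labels do not state.

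At an unadjusted p under 0.05, another quantile normalization gave 1018 higher and 1060 lower genes, against 1543 and 697. With dim genes left out the counts were 1181 higher and 416 lower of 20882 genes, and with protein-coding genes alone 1042 and 120 of 17579, both over fewer genes tested. Separated arrays in both lines were found for 1091 higher and 1140 lower genes after another quantile normalization, and for 388 lower genes with dim genes left out and 127 with protein-coding genes alone. Without 1 array these ranges were 1099 to 1794 and 637 to 910 at an unadjusted p under 0.05, and 2379 to 3503 and 1280 to 1930 for separated arrays, where fewer arrays make separation easier by construction.

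All 20 genes with the smallest p kept their direction under each of 19 alternatives and none passed. They were chosen for separated arrays in each line, so leaving out 1 array could not turn their direction. Alternatives that change only the spread or the genes tested leave a difference as it was. Of the 74 other named genes, run under 18 or 19 of them, 68 kept theirs, and of 32 list medians, run under 12, 22 kept their sign. IL10 turned to -0.0010 with another quantile normalization and -0.0007 with cyclic loess, and CD274 to -0.021 with the former.
Without 1 array, the differences over both lines ran from -0.34 to 0.023 for TNFSF13B, from -0.16 to 0.46 for TNFRSF13B, from -0.15 to 0.079 for SDC1, from -0.10 to 0.28 for CD274 and from -0.088 to 0.43 for HBA1. IL10 ran from 0.03 to 0.21.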

Other observations

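Several immune genes outside the lists were picked after values were seen because the APRIL and EDA arrays of each line did not overlap. IRF8, a transcription factor of B cells and myeloid cells, read 9.36 and 9.30 with EDA against 9.90 and 10.12 with APRIL in HBL-1, and 10.34 and 10.34 against 10.93 and 10.78 in BJAB. Its difference was 0.60 (95% interval 0.29 to 0.90, adjusted p = 0.68). SERPINB9, an inhibitor of granzyme B, differed by 0.62 in HBL-1 and 1.05 in BJAB, FCRL3, an Fc receptor-like protein of B cells, by 0.81 and 0.61, RAB27A, a GTPase of secretory granules, by 0.65 and 0.95, and CEACAM1, an adhesion molecule, by 0.91 and 0.58. None passed limma's adjusted threshold.

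Counts of shared signs in small RNA classes, picked after values were seen and with no test of the classes, are given against 33.4% higher and 19.3% lower in both lines over all genes. Of 667 genes and pseudogenes of 7SL, the RNA of the signal recognition particle, 42.7% were lower in both lines and 16.2% higher. Of 281 of 7SK, an RNA that restrains transcription elongation, 47.7% were lower in both lines and 11.7% higher. Of 1273 of U6, a spliceosome RNA, 37.3% were higher and 19.5% lower. Without HBL-1 APRIL replicate 2, 27.5% of all genes were higher in both lines and 25.1% lower. The counts without that array were 132 higher and 279 lower for 7SL, 40 and 101 for 7SK, and 487 and 211 for U6. RN7SL1 read 16.78 and 16.36 with EDA against 16.13 and 15.77 with APRIL in HBL-1, and 17.59 and 17.71 against 16.65 and 16.89 in BJAB. Copies of 7SL are near identical and share probe signal, so they are not separate observations. The 7SK and U6 sets also hold pseudogenes, and whether their members share probe signal was not tested. RNA quality was not tested.

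Transcript clusters without a single gene symbol, having none or several, gave 0 past limma's threshold among 99574, with 6.03% at an unadjusted p under 0.05.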
